A study of Homo sapiens with 6 samples.

Results

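Described here are 8 genes that are central to neuroblastoma: the receptor tyrosine kinase gene ALK, the oncogenes MYCN and MYC, and the transcription factor genes PHOX2A, HAND2, GATA3, GATA2 and ISL1. They were picked by gene symbol from the 21301 genes of the deposited table, with the outcome of the knockdown already known. All 8 were found, and all 8 are among the 19694 genes that passed the filter on low counts. They were fitted together with all other genes, but since they were chosen with this contrast known, their differences between the groups are given as a description, without p-values. RNA was sequenced from SH-SY5Y, an established human neuroblastoma cell line, collected 72 h after transfection at 10 nM with a control siRNA (siControl) or with an siRNA against PSF (siPSF). PSF is an RNA-binding protein encoded by SFPQ, and the knockdown libraries ask which transcripts depend on it in neuronal cells. Each group holds 3 libraries, which the study describes as biological replicates. The comparison rests on a single cell line and a single siRNA sequence against PSF, so effects of PSF loss and of that siRNA cannot be told apart.

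ALK is a cell-surface receptor of the developing sympathetic nervous system. Its activating mutations occur in familial and sporadic neuroblastoma, and SH-SY5Y itself carries such a mutation. After ligand binding or mutation, ALK signals through adaptor proteins to the RAS-ERK, PI3K-AKT and PLC-gamma pathways. PHOX2A, HAND2, GATA3, GATA2 and ISL1 belong to the sympathetic, or adrenergic, identity of neuroblastoma cells, which is kept by transcription factors that bind at each other's enhancers. MYCN is amplified in a high-risk group of these tumours. SH-SY5Y does not carry that amplification and uses MYC.

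The libraries held between 101540520 and 132420931 counts over genes, and biological variation between libraries of a group, as edgeR estimates it, was 12.6%. Levels below are counts scaled to library size by TMM (CPM) for comparisons between libraries, and deposited FPKM, which is per length of transcript, for comparisons between genes. SFPQ was lower in each siPSF library than in each siControl library, with a log2 fold change of -0.99 (SE 0.10, adjusted p = 9.51e-05 by the quasi-likelihood test of edgeR, adjusted after Benjamini-Hochberg), which left 50.2% of the siControl level. Of all genes tested, 14.9% were called at an adjusted p under 0.05, 6.65% as higher and 8.27% as lower. The median log2 fold change over all genes tested was 0.01. siPSF replicate 3 stood apart from the other libraries, with a mean correlation of 0.9954 to its own group against 0.9966 or more for the other 5. For the members, log2 fold changes are also given without it. In these bulk samples, fewer cells of a type and less RNA per cell cannot be told apart.

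In siControl cells the members spanned a 321-fold range of FPKM. HAND2 stood first with 394 ± 8.84 FPKM (SD, n = 3), followed by GATA2 with 261 ± 19.4 FPKM. PHOX2A at 159 ± 7.37 FPKM, GATA3 at 122 ± 1.10 FPKM and ISL1 at 79.2 ± 6.84 FPKM followed. Each of these neighbours was separated by more than the spread between libraries, so that the 5 factors of the adrenergic circuit all lay above the receptor and the oncogenes. ALK itself reached 17.8 ± 1.11 FPKM, MYC 8.27 ± 0.969 FPKM and MYCN 1.23 ± 0.301 FPKM. In siPSF cells the order of the circuit factors was kept, but PHOX2A at 160 ± 21.4 FPKM and GATA3 at 142 ± 9.13 FPKM were no longer separated by more than their spread. ALK, at 7.24 ± 0.679 FPKM, then lay below MYC, at 9.05 ± 1.01 FPKM. The ratio of ALK to MYC in FPKM was 1.80, 2.24 and 2.47 in siControl and 0.852, 0.782 and 0.771 in siPSF. ALK was the more abundant transcript of the pair in every siControl library and the less abundant in every siPSF library.

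**Figure D1:**
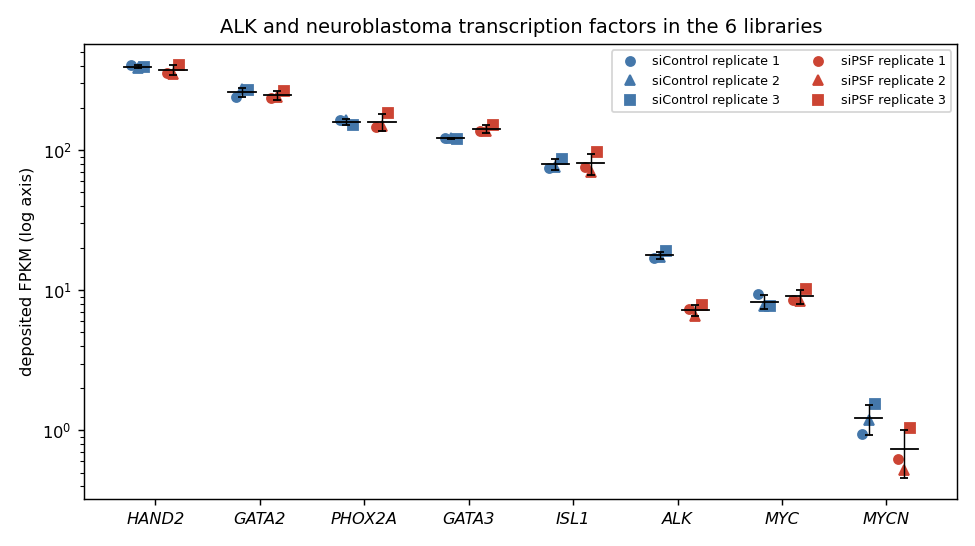
Deposited FPKM (log axis) of the 8 genes in each of the 6 libraries, ordered by their mean in siControl; blue symbols are siControl and red symbols siPSF libraries, and bars give the mean and SD of 3 libraries. ALK is at 16.9 to 19.0 FPKM in siControl and at 6.52 to 7.87 FPKM in siPSF, while the 2 groups of HAND2, GATA2, PHOX2A, ISL1, MYC and MYCN overlap.

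ALK (gene ID 238) showed the largest difference among the members. It measured 104, 108 and 110 CPM in siControl, against 42.8, 42.5 and 40.4 CPM in siPSF. The groups lay far apart, and the spread within each was small beside the gap. The mean of 107 ± 3.26 CPM in siControl stood against 41.9 ± 1.28 CPM in siPSF (SD, n = 3), a log2 fold change of -1.36 (SE 0.08), and 39.0% of the siControl mean remained. That is a 2.56-fold lower level, against 1.99-fold lower for the siRNA target SFPQ. Leaving out each library in turn gave log2 fold changes between -1.38 and -1.33, with -1.33 without siPSF replicate 3. Set against HAND2, a gene whose level did not separate the groups, the number of ALK counts per 100 HAND2 counts was 8.52, 9.15 and 9.76 in siControl and 3.84, 3.81 and 3.13 in siPSF.

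The ALK gene lies on the minus strand of chromosome 2 of GRCh38, from 29192774 to 29921586. It is 729 kb long, its main transcript has 29 exons that cover 0.856% of that length, and its longest intron is 202 kb. The other members are short, from HAND2 with 4.14 kb to GATA3 with 29.9 kb. Among 370 tested protein-coding genes with a length of at least 400 kb, the median log2 fold change was -0.58 and 53.8% were called lower. ALK ranked 43rd from the largest fall in that group, so 42 long genes fell further. Whether gene length bears on the ALK difference was not tested. Among the 4607 protein-coding genes with at least 50 CPM in siControl, ALK ranked 4th, behind UNC5C, LSAMP and SLC8A3 (these were chosen after their values were seen). ALK was itself chosen with its fold change known, so these ranks are a description only. Over all 19694 genes, ALK ranked 253rd from the largest fall.

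**Figure D2:**
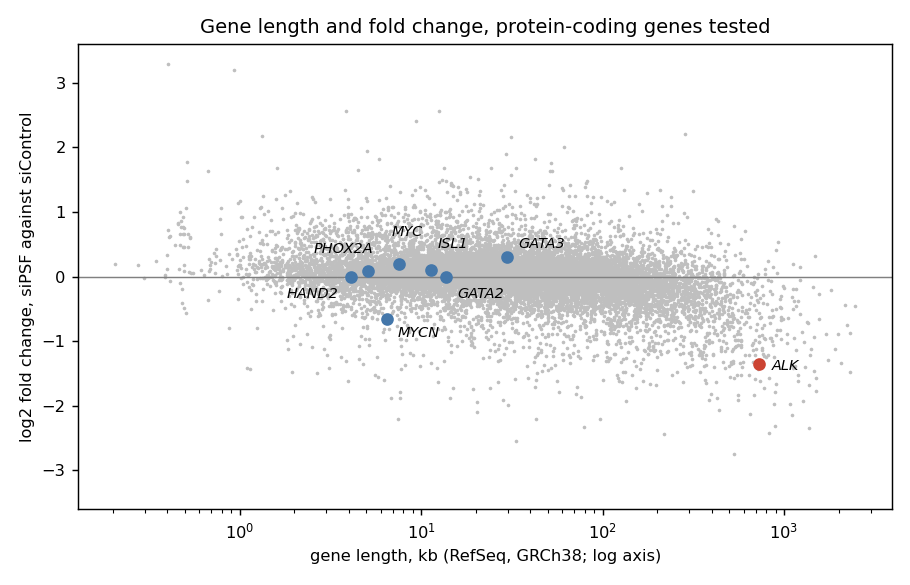
Log2 fold change of siPSF against siControl (edgeR) against gene length in kb (log axis, RefSeq on GRCh38) for 14418 protein-coding genes tested (grey), with the 8 members in colour. ALK lies at 729 kb and -1.36, among long genes whose cloud sits below 0, and the other 7 members lie between 4.14 and 29.9 kb.

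The 250 bases before the first annotated ALK start (RefSeq, GRCh38.p14, chr2:29921587-29921836, minus strand) are shown because the receptor gene is where the groups differ most, and because the circuit factors bind short motifs of this kind. They are printed from 5′ to 3′ with each match in capitals to the E-box CANNTG (bound by basic helix-loop-helix factors such as HAND2 and MYC), the GATA motif AGATAA (bound by GATA2 and GATA3), the homeodomain core TAATTA (read by factors such as PHOX2A and ISL1) or the TATA box TATAAA, on both strands.
ALK: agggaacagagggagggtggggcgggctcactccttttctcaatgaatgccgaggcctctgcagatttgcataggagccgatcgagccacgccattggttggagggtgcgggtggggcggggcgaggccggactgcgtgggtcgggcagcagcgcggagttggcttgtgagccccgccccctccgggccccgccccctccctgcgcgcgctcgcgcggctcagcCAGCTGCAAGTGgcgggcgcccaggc
In this ALK window the E-box has matches 26 and 20 bases before the start, and the other motifs have none. In the RefSeq table, 61.8% of the 35116 promoters hold an E-box. The GC content of the window is 71.6%, higher than in 82.8% of promoters. A match is a match of letters and is not evidence of binding.

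The protein-coding genes whose profile over the 6 libraries was most like that of ALK were SUPT3H, which encodes a subunit of the SAGA transcription complex (Pearson r of log2 CPM 0.9985), CFAP77 (0.9982) and TIAM2 (0.9981), a guanine nucleotide exchange factor for RAC. Their log2 fold changes were -0.80, -1.34 and -0.70. They were picked by likeness to ALK over the same libraries, so no p-value is given for them. These correlations compare groups of 3 libraries and mostly restate the group difference, since 423 of the 12653 genes searched had r above 0.95 to ALK. The nearest tested protein-coding genes on either side were CLIP4 and YPEL5. CLIP4 overlaps ALK by 7004 bases on the opposite strand in the GENCODE annotation, and measured 27.8 ± 2.37 CPM in siControl. Its part in the ALK counts was not tested. Its log2 fold change was -0.16 and that of YPEL5 0.08, with adjusted p of 0.308 and 0.607 (edgeR). Neither gene beside ALK passed the test.

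Of the 7 genes listed as ALK ligands and receptor partners, 4 were tested, and ALKAL1, ALKAL2 and PTPRZ1 were not analysed here. PTPRB, a receptor tyrosine phosphatase, rose from 3.86 ± 0.521 CPM to 6.53 ± 0.431 CPM, a log2 fold change of 0.76 (SE 0.14, adjusted p = 0.00395 by edgeR), and kept its call without any 1 library. PTPRB is a minor transcript here. The growth factor gene PTN measured 15.2 ± 1.12 CPM in siControl and 12.2 ± 0.407 CPM in siPSF without overlap between groups, but its log2 fold change of -0.31 missed the test (adjusted p = 0.0633 by edgeR, and 0.0284 by DESeq2). MDK, which encodes the related growth factor midkine, was abundant, with 1101 ± 117 CPM in siControl against 1036 ± 38.9 CPM in siPSF (log2 fold change -0.09, adjusted p = 0.585). LTK, the closest relative of ALK among receptors, averaged 1.19 CPM in both groups, and the standard error of its log2 fold change was 0.28. Of the 4 genes, 1 was thus called higher and 0 lower, beside 6.65% higher and 8.27% lower of all genes tested.

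Among 30 adaptors and kinases that act downstream of ALK, 4 were called lower (13.3%, beside 8.27% of all genes tested) and 0 higher, with a median log2 fold change of -0.02 beside 0.01 over all genes. The insulin receptor substrate gene IRS2, an adaptor of ALK, fell from 188 ± 17.9 CPM to 120 ± 7.83 CPM (log2 fold change -0.64, adjusted p = 0.000893 by edgeR). SHC3, a neuronal SHC adaptor, fell from 37.1 ± 1.85 CPM to 20.5 ± 4.01 CPM (log2 fold change -0.85, adjusted p = 0.00137). SHC2, of the same family, and the kinase gene MTOR fell by 0.38 and 0.28 on the log2 scale (adjusted p of 0.0152 and 0.035 by edgeR). SHC2 lost its call without siControl replicate 2 (adjusted p = 0.0737) or siPSF replicate 1 (0.056), and MTOR without siControl replicate 2 (0.11), siControl replicate 3 (0.0694) or siPSF replicate 1 (0.159). SHC1 and GRB2, which code for ubiquitous adaptors and had the highest mean CPM over all 6 libraries, had log2 fold changes of 0.10 and 0.11 and did not pass the test (adjusted p of 0.541 and 0.387). The other 26 genes lay between -0.29 and 0.29.

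Several listed genes that respond to ERK signalling, or feed back on it, fell. The list was written with earlier results of these data known, so its shares are a description only. Of the 16 tested, 7 were called lower (43.8%, beside 8.27% of all genes tested) and 0 higher, 13 had a negative log2 fold change, and the median was -0.47 beside 0.01 over all genes. SPRY2, a feedback inhibitor of receptor tyrosine kinase signalling, measured 96.4, 112 and 125 CPM in siControl and 56.1, 54.1 and 59.6 CPM in siPSF. Its groups did not overlap, and it fell by 0.97 on the log2 scale (SE 0.10, adjusted p = 0.00012 by edgeR). RET, the receptor of the GDNF ligands, measured 219, 290 and 294 CPM in siControl and 138, 146 and 79.4 CPM in siPSF. RET fell by 1.15 on the log2 scale (SE 0.19, adjusted p = 0.00201), and by 0.92 without siPSF replicate 3, its lowest library. DUSP6, the ERK phosphatase, fell by 0.52 (adjusted p = 0.00928) and the ETS factor gene ETV4 by 0.44 (adjusted p = 0.00943). VGF, which encodes a secreted neuropeptide precursor, fell from 1159 ± 144 CPM to 819 ± 117 CPM (log2 fold change -0.50, adjusted p = 0.0166 by edgeR). ETV5 and DUSP5, named after their values were seen, made up the 7.

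The count of 7 depended on the libraries. It was 4 without siControl replicate 2 and 8 without siPSF replicate 3, where 2 genes were also called higher. ETV4 lost its call without siControl replicate 2 (adjusted p = 0.0501), VGF without siControl replicate 1 (0.0525) or siControl replicate 2 (0.0608), and DUSP5 without siControl replicate 2 (0.0822), siControl replicate 3 (0.114) or siPSF replicate 1 (0.0939). ERK activity itself was not measured. FOSL1, an ERK target named after its value was seen, had a positive log2 fold change of 0.83 that missed the test (adjusted p = 0.0855), and was called higher without siPSF replicate 3 (1.17, adjusted p = 0.000199). DUSP4, also named after its value was seen, was the other gene called higher without that library (0.48, adjusted p = 0.0041 by edgeR). With all libraries its log2 fold change was 0.27 (adjusted p = 0.326 by edgeR).

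**Figure D3:**
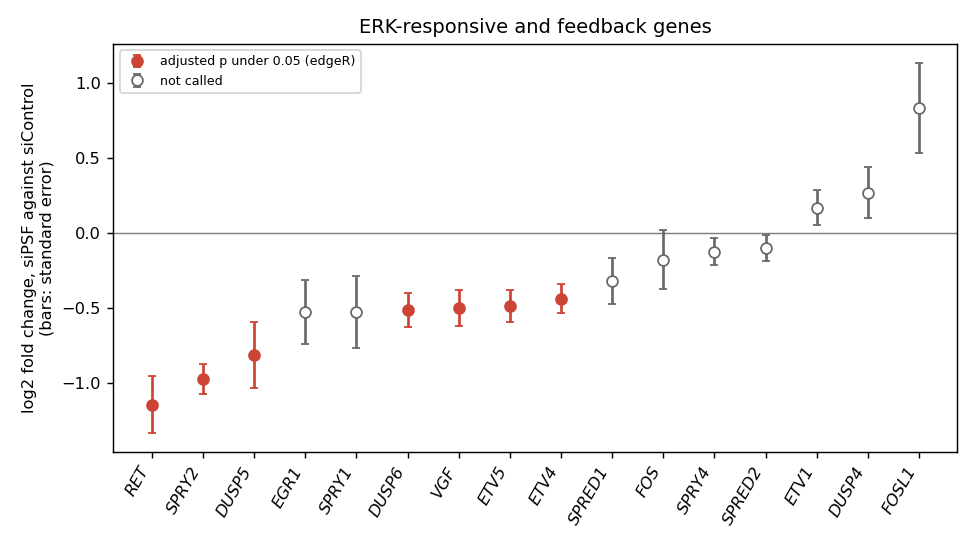
Log2 fold change of siPSF against siControl for the 16 ERK-responsive and feedback genes (edgeR), with standard errors as bars; filled red points passed the test at an adjusted p under 0.05 and open points did not. The 7 filled points are RET, SPRY2, DUSP5, DUSP6, VGF, ETV5 and ETV4, all below 0, and FOSL1 is the highest point at 0.83.

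MYCN (gene ID 4613) was the least abundant member. It measured 2.88, 3.41 and 4.31 CPM in siControl and 2.05, 1.59 and 3.12 CPM in siPSF, from between 168 and 543 counts per library. The groups overlapped, since siPSF replicate 3 lay above siControl replicate 1. The mean was 3.53 ± 0.725 CPM in siControl and 2.25 ± 0.787 CPM in siPSF, with a log2 fold change of -0.65 (SE 0.24), the largest standard error among the members. Leaving out each library in turn gave log2 fold changes between -0.96 and -0.45, with -0.96 without siPSF replicate 3. MYCN lies on chromosome 2 from 15940550 to 15947004 and shares 1700 bases with the antisense transcript MYCNOS, which measured 0.186 ± 0.112 CPM in siControl and 0.122 ± 0.115 CPM in siPSF. Of the nearest tested protein-coding genes, the RNA helicase gene DDX1, which lies 309 kb away and is co-amplified with MYCN in some tumours, rose by 0.40 on the log2 scale (SE 0.08, adjusted p = 0.00732 by edgeR). DDX1 thus pointed the opposite way to MYCN, and its adjusted p was 0.0522 without siControl replicate 2. CYRIA, on the other side, had a log2 fold change of 0.12 (adjusted p = 0.726). The closest profile to that of MYCN was that of the zinc finger gene ZNF791 (r = 0.9953 over 6 libraries).

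MYC (gene ID 4609) measured 40.4, 32.9 and 31.9 CPM in siControl and 37.7, 37.3 and 46.0 CPM in siPSF. The groups overlapped, with siControl replicate 1 above siPSF replicates 1 and 2. The means were 35.1 ± 4.67 CPM and 40.3 ± 4.91 CPM, a log2 fold change of 0.20 (SE 0.12), and 0.10 without siPSF replicate 3. Per length, MYC exceeded MYCN in every library. The ratio of MYC to MYCN in FPKM was 9.92, 6.50 and 4.99 in siControl and 13.7, 16.0 and 9.77 in siPSF, and the groups overlapped at siControl replicate 1 and siPSF replicate 3. The sum of MYC and MYCN was 9.50 ± 0.747 FPKM in siControl and 9.78 ± 1.29 FPKM in siPSF, a difference within the spread. Of the transcripts beside MYC, only PVT1 was tested, with a log2 fold change of 0.31 (adjusted p = 0.0875 by edgeR) and levels of 9.81 ± 0.972 CPM and 12.2 ± 0.668 CPM. The nearest tested protein-coding genes LRATD2 and CYRIB, each more than 1000 kb away, had log2 fold changes of 0.74 and 0.29 and did not pass the test (adjusted p of 0.0978 and 0.0863). HDDC2 had the profile most like that of MYC (r = 0.9838).

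Of 23 genes of the MYC network and of MYCN stability, 2 were called higher and 3 lower, beside 6.65% higher and 8.27% lower of all genes tested, with a median of -0.06 beside 0.01. TRRAP, a cofactor through which MYC recruits histone acetyltransferases, fell from 321 ± 19.9 CPM to 230 ± 17.5 CPM (log2 fold change -0.48, adjusted p = 0.00367 by edgeR). MXD4, a MAX partner that represses MYC target sites, rose from 42.4 ± 4.75 CPM to 59.6 ± 2.22 CPM (log2 fold change 0.49, adjusted p = 0.00606). The ubiquitin ligase gene MYCBP2 and the MAX partner gene MGA fell by 0.35 and 0.37 on the log2 scale (adjusted p of 0.0223 and 0.0252). FBXW7, named after its value was seen, is the ubiquitin ligase subunit that marks MYC and MYCN for degradation, and rose by 0.33 (adjusted p = 0.0341). The calls of MYCBP2, MGA and FBXW7 held in 3, 2 and 2 of the 6 fits that each left out 1 library, and their largest adjusted p was 0.0825, 0.107 and 0.162. HUWE1, a ubiquitin ligase for MYCN and the gene of the list with the highest mean CPM, had a log2 fold change of -0.22 and did not pass the test (adjusted p = 0.104).

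Of 36 MYC target genes, 4 were called higher (11.1%, beside 6.65% of all genes tested) and 1 lower (2.78%, beside 8.27%), and the median was 0.09 beside 0.01. The nucleolar protein gene NPM1 rose from 463 ± 55.3 CPM to 702 ± 78.5 CPM (log2 fold change 0.60, adjusted p = 0.0036 by edgeR), and kept its call without any 1 library. The chaperonin gene HSPD1 rose by 0.35 on the log2 scale (adjusted p = 0.0264) and so did FBL, the nucleolar methyltransferase gene (adjusted p = 0.0296). NCL, which encodes nucleolin and is named after its value was seen, rose by 0.34 (adjusted p = 0.0377), and the transferrin receptor gene TFRC fell by 0.41 (adjusted p = 0.0175). HSPD1, FBL and NCL kept their calls in 2, 2 and 1 of the 6 fits with a library left out (largest adjusted p 0.133, 0.0831 and 0.175), and TFRC lost its call without siControl replicate 3 (0.0594). PTMA and MCM7, the targets with the highest mean CPM over all 6 libraries, had log2 fold changes of 0.05 and -0.13 and did not pass the test (adjusted p of 0.764 and 0.318). On FPKM that was rescaled so that libraries sum alike, the balance of calls turned, to 1 higher and 11 lower, and the median of the list was -0.11 where that of all genes was -0.16.

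The 5 factors of the adrenergic circuit lay in a narrow range of log2 fold changes, from -0.0037 to 0.30, with a median of 0.08. HAND2 (gene ID 9464), a basic helix-loop-helix factor of sympathetic neurons, measured 1221, 1178 and 1131 CPM in siControl and 1113, 1115 and 1292 CPM in siPSF. GATA2 (gene ID 2624) measured 875, 1014 and 946 CPM in siControl and 886, 917 and 1024 CPM in siPSF. In both genes the groups overlapped and siPSF replicate 3 was the highest library, and each log2 fold change was -0.0037 (SE 0.09). Without siPSF replicate 3 they were -0.08 and -0.07.

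PHOX2A (gene ID 401), a homeodomain factor of noradrenergic neurons, measured 301, 302 and 267 CPM in siControl and 279, 286 and 357 CPM in siPSF. ISL1 (gene ID 3670), a LIM homeodomain factor, measured 197, 202 and 223 CPM in siControl and 206, 195 and 267 CPM in siPSF. In PHOX2A and ISL1 alike, siPSF replicate 3 was the highest of the 6 libraries and the other siPSF libraries lay within the siControl range or near it. The log2 fold changes were 0.08 (SE 0.11) for PHOX2A and 0.10 (SE 0.11) for ISL1, and became -0.04 and -0.05 without siPSF replicate 3. The sign also turned on rescaled FPKM, to -0.12 and -0.10, where the median of all genes shifted to -0.16. Relative to that median both were still slightly positive, at 0.045 and 0.065.

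GATA3 (gene ID 2625), a zinc finger factor of sympathetic differentiation, was 1 of the 5 circuit factors, the only one, whose groups did not overlap. Among all genes tested, 34.4% did not overlap. GATA3 measured 409, 405 and 386 CPM in siControl and 467, 479 and 533 CPM in siPSF. Each siPSF library was above each siControl library, with the highest value in siPSF replicate 3. The mean was 400 ± 12.1 CPM in siControl and 493 ± 34.8 CPM in siPSF, a log2 fold change of 0.30 (SE 0.08), or 1.23-fold higher. The range was 0.24 to 0.34 when each library was left out in turn, with 0.24 without siPSF replicate 3, and on rescaled FPKM the value was 0.11, which is 0.27 above the median of all genes. GATA3 and GATA2 bind the same motif. Whether their balance moved was not tested, and GATA2 itself had a log2 fold change of -0.0037. The ratio of GATA3 to GATA2 counts was 0.467, 0.400 and 0.409 in siControl and 0.527, 0.523 and 0.520 in siPSF, without overlap, and with a smaller spread among the siPSF libraries.

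**Figure D4:**
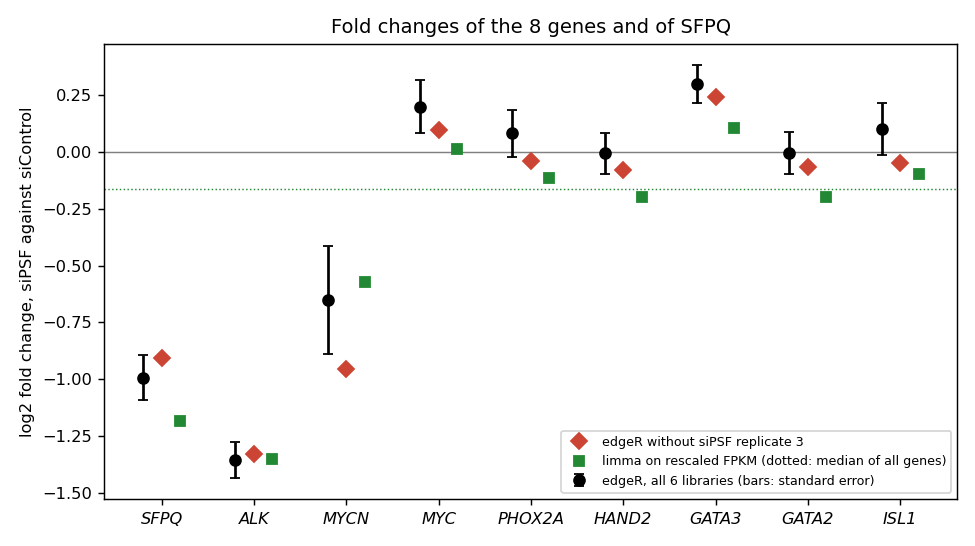
Log2 fold change of siPSF against siControl for SFPQ and the 8 members: edgeR on all 6 libraries with standard errors (black), edgeR without siPSF replicate 3 (red), and limma on rescaled FPKM (green, with the median of all genes at -0.16 as a dotted line). ALK stays between -1.36 and -1.33 in all 3, GATA3 stays above 0, and PHOX2A and ISL1 cross 0.

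Taken as counts, 2 of the 8 members were called at an adjusted p under 0.05, ALK as lower and GATA3 as higher, and the groups of these 2 were the ones that did not overlap. Among all genes tested 14.9% were called and 34.4% did not overlap. GATA3 was called in 0 of the 6 fits that left out 1 library and ALK in 6 of 6. In the fits that left out 1 library, MYCN was called as lower in 1 of 6, the one without siPSF replicate 3. It was also called as lower with the replicate number as a block and by DESeq2's Wald test. Limma called it on rescaled FPKM, where the median of all genes was -0.16, but not on log2(FPKM + 0.5). The members were chosen with this contrast known, so these counts carry no weight of their own.

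The windows before the starts of HAND2 (chr4:173530230-173530479, minus strand) and ISL1 (chr5:51383198-51383447, plus strand) are shown because, among the first starts of the 7 members found in the RefSeq table (GRCh38.p14), they are the ones that hold the letters of a GATA motif. Capitals again mark the same 4 motifs on both strands.
HAND2: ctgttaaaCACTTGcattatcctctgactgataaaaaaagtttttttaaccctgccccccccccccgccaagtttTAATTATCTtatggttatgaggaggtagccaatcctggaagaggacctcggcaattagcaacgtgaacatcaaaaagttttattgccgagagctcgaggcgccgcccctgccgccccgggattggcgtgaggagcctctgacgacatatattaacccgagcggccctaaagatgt
ISL1: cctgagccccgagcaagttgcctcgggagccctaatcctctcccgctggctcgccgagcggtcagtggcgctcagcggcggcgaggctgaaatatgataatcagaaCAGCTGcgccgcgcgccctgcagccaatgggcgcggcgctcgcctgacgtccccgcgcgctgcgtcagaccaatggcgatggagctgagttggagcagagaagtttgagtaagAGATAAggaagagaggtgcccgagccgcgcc
The HAND2 window holds an E-box 242 bases before the start, and a TAATTA core at 175 bases that shares letters with an AGATAA match on the opposite strand at 172 bases. The ISL1 window holds an E-box 144 bases and an AGATAA match 31 bases before the start. AGATAA is found in 9.17% and TAATTA in 4.35% of the 35116 promoters, and TATAAA in 10.7%. With 49.6% GC the HAND2 window is poorer in GC than the median promoter at 58.0%, and the ISL1 window has 65.2%. HAND2 and ISL1 thus share the AGATAA letters. The groups overlapped in RNA level for both, and also for MYCN, PHOX2A and GATA2, whose windows hold no AGATAA match. A link between motif letters and RNA level was not tested.

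Several circuit genes overlap an antisense transcript, and since strand use in counting is not given in the sources used here, the split of reads between the partners is uncertain. HAND2-AS1, which shares 2960 bases with HAND2 (chromosome 4, from 173526091 to 173530229), was abundant, with 532 ± 44.8 CPM in siControl against 564 ± 25.5 CPM in siPSF. Its log2 fold change was 0.08 (adjusted p = 0.583 by edgeR), and the ratio of HAND2 to HAND2-AS1 counts was 2.22 ± 0.254 and 2.09 ± 0.234, within the spread. GATA3-AS1, which shares 3035 bases with GATA3 (chromosome 10, from 8045333 to 8075198), was at 40.3 ± 6.34 CPM and 42.4 ± 1.30 CPM, with a log2 fold change of 0.07 (adjusted p = 0.709). GATA2-AS1, which shares 3990 bases with GATA2 (chromosome 3, from 128479422 to 128493201), was at 13.4 ± 1.02 CPM and 11.7 ± 2.52 CPM, with a log2 fold change of -0.19 (adjusted p = 0.433). Of the 10 antisense and adjacent transcripts listed, 5 were tested, and 0 were called by edgeR in either direction, beside 14.9% of all genes tested. PVT1 was the 1 among these 5 whose groups did not overlap, beside 34.4% of all genes tested. PHOX2A (chromosome 11, from 72239077 to 72244176) shares 71 bases with INPPL1, and ISL1 (chromosome 5, from 51383448 to 51394730) overlaps no other gene in the GENCODE annotation.

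Most genes beside the circuit factors did not pass the test, as was so for most genes tested, of which 14.9% were called. ANAPC15 and CLPB beside PHOX2A had log2 fold changes of -0.22 and 0.06, SCRG1 and FBXO8 beside HAND2 0.14 and 0.18, and TAF3 and CELF2 beside GATA3 -0.19 and 0.15. Beside GATA2, the selenocysteine elongation factor gene EEFSEC fell by 0.55 on the log2 scale (adjusted p = 0.0362 by edgeR), and RPN1 had a value of 0.05. Beside ISL1, the integrin gene ITGA1 fell by 0.83 (adjusted p = 0.00843), and PARP8 had a value of 0.06. EEFSEC was lowest in siPSF replicate 3, and its log2 fold change was -0.35 without that library. EEFSEC lost its call without any 1 of the siControl libraries (adjusted p of 0.0748, 0.113 and 0.084), and ITGA1 without siControl replicate 3 (0.0603). The profiles most like those of the circuit factors were those of AXIN1 for PHOX2A (r = 0.9983), RAMP3 for HAND2 (0.9954), BANP for GATA3 (0.9953), KIF17 for GATA2 (0.9928) and TRMT6 for ISL1 (0.9982). BANP had a log2 fold change of 0.38. These genes were picked by their profile over the same libraries, so no p-value is given for them. With 6 libraries and 12653 genes searched, high correlations of this kind are a description only.

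Of 25 other adrenergic transcription factors listed, 24 were tested. Of these, 3 were called higher (12.5%, beside 6.65% of all genes tested), 4 were called lower (16.7%, beside 8.27%) and 17 were not called, and the median was -0.08 beside 0.01. TFAP2B, an AP-2 factor of sympathetic neuroblasts, fell from 604 ± 64.8 CPM to 403 ± 10.5 CPM (log2 fold change -0.58, adjusted p = 0.00159 by edgeR). The Krüppel-like factor gene KLF7 fell by 0.56 on the log2 scale (adjusted p = 0.00221), and the neuronal zinc finger gene ZNF536 by 0.73 (adjusted p = 0.00285). The LIM-only cofactor genes LMO1, LMO4 and LMO3 were the 3 that rose. LMO1, a neuroblastoma susceptibility gene, rose from 36.2 ± 3.82 CPM to 50.3 ± 1.32 CPM (log2 fold change 0.47, adjusted p = 0.00655), LMO4 by 0.39 (adjusted p = 0.00994) and LMO3 by 0.61 (adjusted p = 0.0218). LMO3 and EYA1, which fell by 0.60 (adjusted p = 0.0213), were named after their values were seen. SOX4, a SOX factor with the next highest mean CPM after TFAP2B, had a log2 fold change of -0.11 (adjusted p = 0.621).

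The list of adrenergic factors changed with the libraries, from 4 lower to 8 lower without siPSF replicate 3. EYA1 lost its call without siControl replicate 2 (adjusted p = 0.0562) or siControl replicate 3 (0.1), LMO4 without siPSF replicate 1 (0.0581), and LMO3 without siControl replicate 2 (0.111), siControl replicate 3 (0.061) or siPSF replicate 1 (0.0916). On rescaled FPKM none of the 3 LMO genes was called, although each stayed positive at 0.22, 0.24 and 0.18 for LMO1, LMO3 and LMO4.

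**Figure D5:**
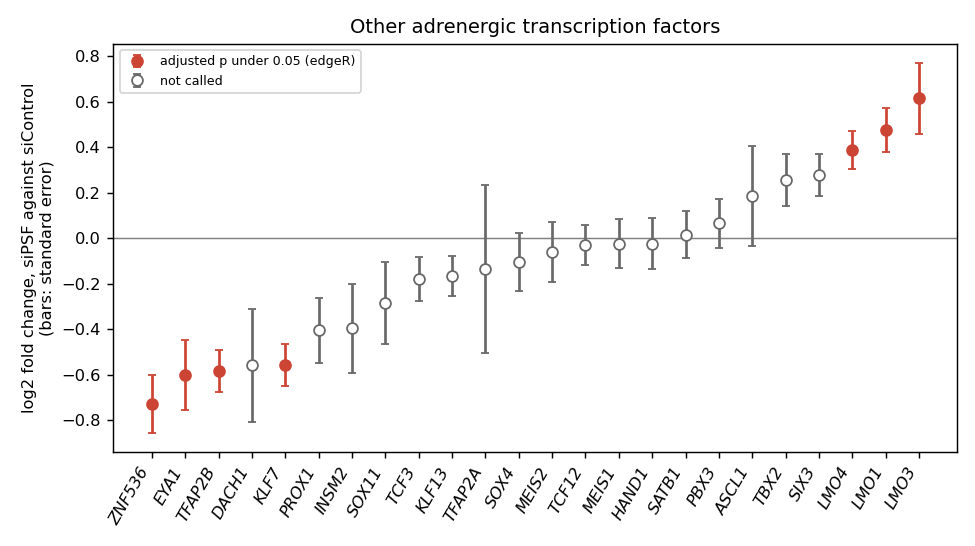
Log2 fold change of siPSF against siControl for the 24 other adrenergic transcription factors tested (edgeR), with standard errors as bars; filled red points passed the test at an adjusted p under 0.05 and open points did not. The filled points are ZNF536, EYA1, TFAP2B and KLF7 below 0, and LMO4, LMO1 and LMO3 above 0.

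Of 23 factors of the opposing mesenchymal state, 16 were tested. Of these, 2 were called higher and 2 lower (12.5% each, beside 6.65% and 8.27% of all genes tested), and the median of 0.01 equalled that of all genes. MAFF, a small MAF factor, fell by 0.56 on the log2 scale (adjusted p = 0.0114 by edgeR) and the NOTCH coactivator gene MAML2 fell by 1.28 (adjusted p = 0.0149) at a level of only 0.503 ± 0.0803 CPM in siControl. SIX4 rose by 1.42 (adjusted p = 0.0186) at 0.112 ± 0.0223 CPM in siControl, and IRF2 rose by 0.42 (adjusted p = 0.0366). Without 1 library MAFF, MAML2, SIX4 and IRF2 kept their calls in 5, 4, 3 and 3 of 6 fits, with a largest adjusted p of 0.0636, 0.0604, 0.0667 and 0.167. TWIST1 and JUNB, with the highest mean CPM of the list, had log2 fold changes of -0.10 and -0.05 and did not pass the test (adjusted p of 0.519 and 0.747).

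Apart from TH, the cells carried RNA of the sympathetic markers listed. All 9 sympathetic neuroblast markers listed were tested, and their summed level was 3832 to 4485 CPM in siControl and 3262 to 4097 CPM in siPSF. Of them 3 were called lower (33.3%, beside 8.27% of all genes tested) and 0 higher. Their median log2 fold change was 0.05 beside 0.01 over all genes. DBH, the noradrenaline-synthesizing enzyme gene, fell from 1738 ± 285 CPM to 1085 ± 77.3 CPM (adjusted p = 0.00241 by edgeR). The others called were ELAVL4 (adjusted p = 0.0185) and TH (adjusted p = 0.0245). TH, which encodes tyrosine hydroxylase and defines catecholamine cells, was near 0 in this line, at 0.741 ± 0.0945 CPM in siControl. TH and ELAVL4 kept their calls in 4 of the 6 fits with a library left out (largest adjusted p 0.0999 and 0.0647). Of 10 mesenchymal markers, 9 were tested, with a summed level of 353 to 371 CPM in siControl and 325 to 346 CPM in siPSF. TWIST1 had the highest level among them, with 204 ± 9.72 CPM in siControl, so mesenchymal marker RNA was present too. FN1 and COL3A1 were called lower (22.2%, beside 8.27% of all genes tested) and 0 higher, and the median log2 fold change was 0.19. COL3A1 was called in only 2 of the 6 fits with a library left out (largest adjusted p 0.168). Of 5 Schwann cell markers, 3 were tested and summed to at most 3.14 CPM, while SOX10 and CDH19 were not analysed here. The epithelial marker EPCAM rose (adjusted p = 0.0139) but reached at most 4.40 CPM, with an adjusted p of up to 0.0753 when a library was left out, and the lineage markers PTPRC, PECAM1 and GFAP were not analysed here. The part of these marker levels in the ALK difference was not tested.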

How the data were processed

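RNA of 6 SH-SY5Y libraries was analysed. Conditions and replicate numbers were taken from the sample titles, and 0 per-sample columns were left unused. The authors deposited raw read counts of each gene beside FPKM. Their counts come from poly(A)-selected, paired-end reads aligned to hg38 and assigned to RefSeq genes. The methods name Bowtie 2 and TopHat, and the submitters' processing notes name Trimmomatic, HISAT2 2.1.0 and StringTie 2.1.3b, so the mapper behind the table is uncertain. The deposited FPKM values were normalized by exon length and mapped reads. The table holds no count of 0, so a gene that lacks reads in some library cannot be followed.

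Counts were filtered with filterByExpr (19694 genes kept), scaled by TMM and fitted by quasi-likelihood in edgeR with no block for the replicate number, and Benjamini-Hochberg adjustment was made over all 19694 genes. The depth of 101540520 to 132420931 counts per library covers counting error only, and p-values measure the spread between 3 cultures of 1 line. Replicate libraries differed by more than sampling noise (chi-square per degree of freedom of 20.8 or more). Members and gene lists were chosen with earlier results of these data known. Members were part of the fit, and no p-value is given for them. Some genes of the lists are not reported here and were taken out of the lists and their counts. Named were SFPQ, the members, all tested ligands, partners and antisense or adjacent transcripts, in each other list that is no marker list the 4 called genes with the smallest p and the 2 with the highest mean CPM over all libraries, the genes with the closest profile (at least 1 CPM), and the nearest tested protein-coding genes outside the member's own span in RefSeq; any other gene was named after its values were seen. On simulated data of 19694 genes for this comparison, 200 of them changed, the fit recovered 78.8% of 2-fold and 96.0% of 4-fold changes, and 8.47% of its calls were false. Alternatives were leaving out each library, a replicate block, DESeq2's size factors and Wald test, no filter, and limma on log2(FPKM + 0.5) or on FPKM rescaled to the same sum, with a mean of at least 0.5. Versions were DESeq2 1.42.0, limma 3.58.1, edgeR 4.0.16, R 4.3.3, pandas 2.3.3 and Python 3.11.15.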

Additional observations from a re-analysis of the deposited data

How the results depend on the processing

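SFPQ kept its direction and its call under every alternative run, with log2 fold changes from -1.19 to -0.91. Leaving out 1 library at a time gave 1500 to 3140 called genes, 572 to 1405 of them higher and 928 to 1735 lower, with the lowest counts without siControl replicate 2. In those fits the context lists held 5 to 13 genes higher and 12 to 29 lower, against 12 and 21 with all libraries, between 1 and 2 of the 8 members were called, and the members' median log2 fold change ran from -0.06 to 0.09. The cause of the lower counts was not tested beyond the smaller number of libraries. On log2(FPKM + 0.5), limma called 736 genes higher, 5 context genes higher and 1 member. On FPKM rescaled to the same sum, which moved the median of all genes to -0.16, it called 463 higher and 3409 lower, 2 context genes higher and 48 lower, and the members' median was -0.16. With the replicate number as a block, edgeR called 3029 genes (1389 higher and 1640 lower), 3 members, and 15 context genes higher and 22 lower, and EYA1 lost its call (adjusted p = 0.0571). The numbers were not shown to pair the libraries: same-numbered libraries had correlations of their deviations of -0.01, 0.30 and 0.11, and 2 of these 3 siControl libraries did not correlate best with their own number. The Wald test of DESeq2, its size factors within edgeR, and testing without a filter gave counts of calls within 1.5 times those reported. For single genes, 79 values lost a call and 69 gained one, in counts that leave out the members and genes only in marker lists. Of the members, 10 values moved by more than the spread between replicates. Among the members and the genes counted, no call changed its sign. Depth limits MYCN, at 168 to 543 counts, more than any other member.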
